A study of Mus musculus with 18 samples.

Results

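The interleukin-1 (IL-1) family genes described here were 10 of the 32285 genes counted in single cells of mouse dorsal dermis, and they were chosen by name. They comprised the cytokines Il1a, Il1b, Il18 and Il33, the receptor antagonist Il1rn, the receptors Il1r1, Il1r2, Il1rl1 and Il18r1, and the binding protein Il18bp. All 10 were found by symbol, each under 1 Ensembl identifier, and all 10 had unique molecular identifiers (UMIs, 1 per captured transcript) in each of the 18 libraries. Their UMIs in the cells that were kept ranged from 417 for Il1a to 265421 for Il1r2.

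The skin came from 18 male wild-type C57BL/6J mice of about 54 days kept in 12 h of light and 12 h of dark, with 3 mice at each of 6 zeitgeber times (ZT2, ZT6, ZT10, ZT14, ZT18 and ZT22, in hours after lights on). Each mouse gave 1 droplet library from a skin punch that had been digested with collagenase at 37 °C and sorted for live cells, and no group carried a transgene or a treatment. The study asked how the clock differs between dermal fibroblasts and immune cells, and these genes were compared with that question in view. By the hours in the labels, the 3 mice of a zeitgeber time were taken on successive days, so each day held 1 mouse of every time.

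Of 23990 barcodes, between 318 and 2322 per library, 16877 cells passed the limits used in the study. Libraries held between 4850221 and 40827440 UMIs, and 36 of 16840 distinct barcodes occurred in 2 or more libraries. Cell classes were rebuilt from marker genes and are named with "-like". There were 12241 fibroblast-like cells, in clusters that each had 6 of 6 fibroblast markers, and 3311 immune-like cells, of which 1696 were macrophage-like, 354 monocyte-like, 338 Ear2-high myeloid-like, 162 dendritic-like, 147 neutrophil-like, 99 T cell-like, 87 NK cell-like, 84 type 2 innate lymphoid-like, 54 mast cell-like and 33 B cell-like. The label "dermis" did not cover all cells, as 737 cells were muscle-like. Another 27 were endothelial-like, and 561 cells and 257 immune-like cells stayed unnamed. Of these 561, 433 formed a cluster that had 6 of 6 fibroblast markers but a low median of 6545 UMIs per cell. Clustered at a finer resolution of 2, 17 cells formed a keratinocyte-like cluster led by Lgals7, Krt14, Krt15 and Krt5. The library of ZT14 replicate 1 stood apart, with 43.2% immune-like cells against 9.69% to 28.7% in the others, and 92 of all 147 neutrophil-like cells. The clock genes Arntl, Dbp and Nr1d1 passed the rhythm test in both cell types, with peaks in fibroblast-like cells at ZT22.6, ZT9.88 and ZT8.12.

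IL-1 family cytokines are alarm signals of barrier tissues: they are made by stressed or activated cells and bind paired receptors that signal through MyD88 to NF-kappaB. Il1a and Il1b act on the receptor encoded by Il1r1, Il1rn encodes a natural antagonist of that receptor, and Il1r2 encodes a decoy receptor that binds the cytokine without signalling. Il33 acts through the product of Il1rl1, also called ST2, on mast cells, type 2 innate lymphoid cells and regulatory T cells, while Il18 acts through the product of Il18r1 on natural killer (NK) and T cells and is held in check by Il18bp.

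Most of the receptor genes sit in a row. On chromosome 1 of GRCm38, all on the plus strand, Il1r2 (chr1:40074079-40125231), Il1r1 (chr1:40225080-40317257), the interleukin-36 receptor gene Il1rl2 (chr1:40324610-40367562), Il1rl1 (chr1:40429570-40465415), Il18r1 (chr1:40465552-40500854) and Il18rap (chr1:40515362-40551705), which encodes the partner chain of the interleukin-18 receptor, follow one another, and 136 bases lie between Il1rl1 and Il18r1. Il1a and Il1b lie on the minus strand of chromosome 2 (chr2:129299610-129309972 and chr2:129364570-129371139), and Il1rn on its plus strand (chr2:24336853-24351494). Il33 is at chr19:29925114-29960718 and Il18 at chr9:50554827-50581840, both on the plus strand, and Il18bp is at chr7:102014885-102018690 on the minus strand.

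Il1r2 and Il1r1, along with Il18r1, had a called 24 h rhythm in fibroblast-like cells, and for this reason their promoters were searched for sites that clock or inflammatory factors are known to bind. Each window held 250 bases before and 50 after a start site in RefSeq (GRCm38.p6), and all 10 genes had at least 1 window. The motifs were the E-box CACGTG, the D-box TTATGNAA, the ROR response element and the NF-kappaB site, on both strands, and no 2 matches overlapped. Matches are in capitals. The Il1r2 start lies inside the gene as annotated above, downstream of its first annotated start.
Il1r2, chr1:40085843-40086142, plus strand: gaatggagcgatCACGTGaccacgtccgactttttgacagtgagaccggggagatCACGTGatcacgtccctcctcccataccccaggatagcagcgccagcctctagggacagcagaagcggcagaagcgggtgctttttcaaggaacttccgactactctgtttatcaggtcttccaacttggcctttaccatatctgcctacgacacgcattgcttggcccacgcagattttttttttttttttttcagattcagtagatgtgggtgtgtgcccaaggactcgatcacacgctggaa
Il1r1, first start, chr1:40224830-40225129, plus strand: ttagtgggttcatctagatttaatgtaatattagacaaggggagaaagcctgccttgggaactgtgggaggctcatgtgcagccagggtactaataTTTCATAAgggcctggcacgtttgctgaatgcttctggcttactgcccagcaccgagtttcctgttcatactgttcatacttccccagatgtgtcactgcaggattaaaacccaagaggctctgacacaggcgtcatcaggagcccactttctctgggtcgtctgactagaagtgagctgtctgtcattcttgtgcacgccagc
Il1r1, second start, chr1:40266336-40266635, plus strand: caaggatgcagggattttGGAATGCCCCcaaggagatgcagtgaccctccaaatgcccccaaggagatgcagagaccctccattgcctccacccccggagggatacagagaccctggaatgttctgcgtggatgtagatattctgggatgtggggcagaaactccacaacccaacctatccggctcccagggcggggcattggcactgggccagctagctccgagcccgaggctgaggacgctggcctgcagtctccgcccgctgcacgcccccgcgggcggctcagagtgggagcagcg
The Il1r2 window held 2 E-boxes, whose first bases were at -238 and -195 from the start site. Of 32851 promoters in the same table, 7.15% held at least 1 E-box and 0.594% at least 2. At the first start of Il1r1 there was a D-box at -154, found in 3.39% of all promoters, and at its second start an NF-kappaB site at -232, found in 4.50% of them. D-boxes were also found in 1 window each of Il1rl1, at -34, and of Il33, at -85. None of the 3 windows of Il18r1 held any of the 4 motifs, and these letters describe the windows only, not whether a factor binds there.

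Members differed in the cell types that held their UMIs, and cytokines were found on both sides (the heat map of levels by class). The cytokines Il33 and Il18 and the receptors Il1r1, Il1r2 and Il18r1 had between 93.8% and 98.5% of their UMIs in fibroblast-like cells, while Il1a, Il1b and Il1rn had under 1% there. Il1rl1 and Il18bp had 65.0% and 75.2%. Fibroblast-like cells were 12241 of the 16877 kept cells, so these shares also reflect their number and are not levels. Levels below are UMIs per 10000 UMIs of the cells of a class, given as the mean ± SD over libraries with at least 10 cells of that class. Where a class had few such libraries, the UMIs summed over all libraries are given, with an exact 95% Poisson interval that covers counting error only. Classes were formed from the same cells, so their differences are described and not tested. In such sums, fewer cells with a gene and less of its RNA per cell cannot be told apart.

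**Figure D1:**
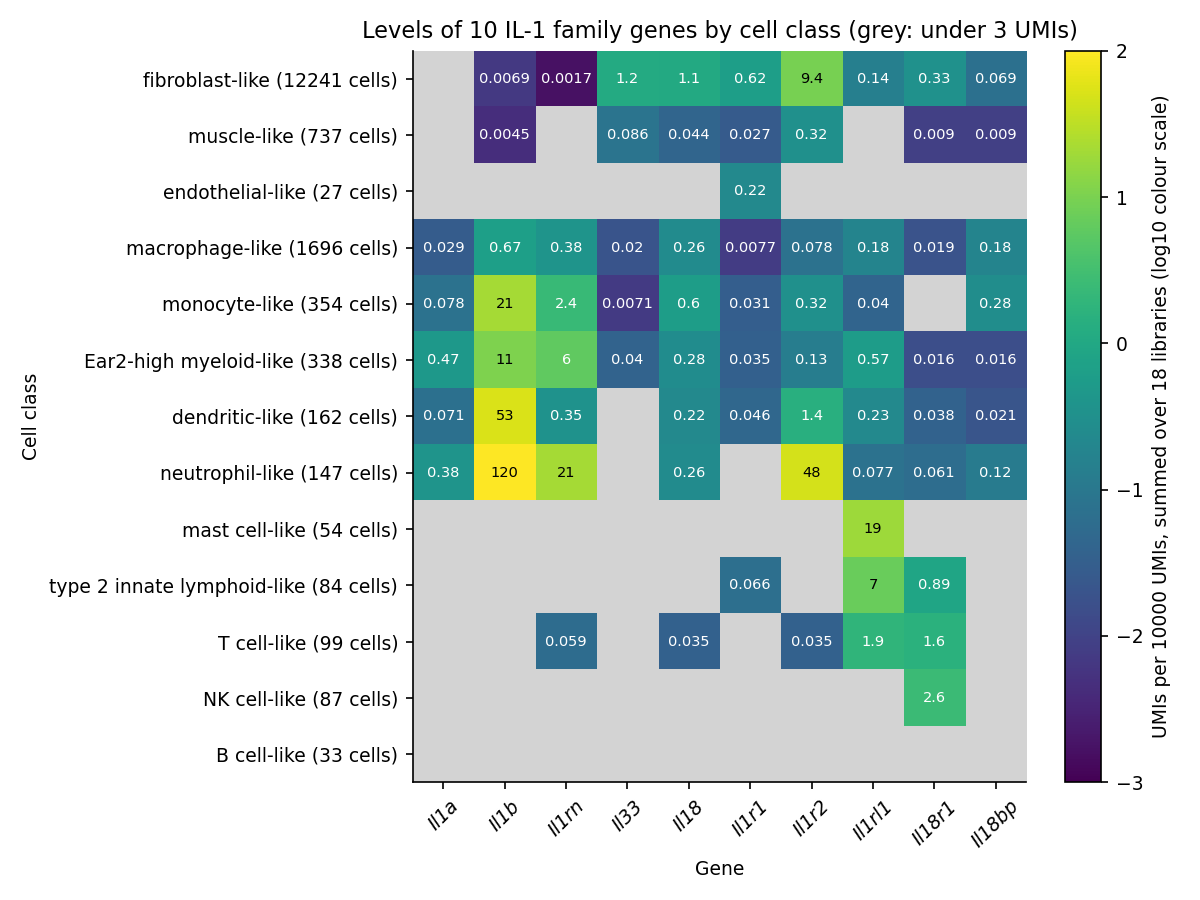
Levels of the 10 genes (columns) in 13 cell classes (rows), as UMIs per 10000 UMIs summed over 18 libraries and printed in each cell, with colour on a log10 scale and grey where under 3 UMIs were counted. Il33, Il18, Il1r1 and Il1r2 were seen in fibroblast-like cells, with Il18 also in myeloid classes and Il1r2 highest in neutrophil-like cells. Il1a, Il1b and Il1rn were highest in myeloid classes. Il1rl1 was also seen in mast cell-like and lymphoid classes, and Il18r1 in lymphoid classes.

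Il1b, the inducible IL-1 cytokine, was a myeloid gene. Neutrophil-like cells had the highest summed level, 120.5 per 10000 (117.8 to 123.2), and 98.6% of them had a UMI. Most came from ZT14 replicate 1, where the level was 136.8, while without this library it was 86.5. Dendritic-like cells had 58.1 ± 19.1 (SD, n = 5), from 32.3 to 75.6, monocyte-like cells 19.5 ± 13.1 (n = 6), from 7.72 to 42.1, and Ear2-high myeloid-like cells 11 ± 7.49 (n = 15), from 0 to 25.6. The ranges of these neighbours overlapped, so the order of dendritic-like, monocyte-like and Ear2-high cells held for the means only. Monocyte-like cells of ZT2 replicate 3, which held 158 of the 354, had the lowest level, 7.72, and the summed level was 21.1 with them and 30.6 without them. Macrophage-like cells, the most abundant immune class, had 0.892 ± 1.48 (n = 18), with a median of 0.236, and 5.96% of them had a UMI. In fibroblast-like cells 189 UMIs were counted, in 1.51% of the cells at a median of 22200 UMIs per cell. Muscle-like cells, which are not a known source, had a UMI in 0.407% of cells at a median of 6603 UMIs. Thinned to 4000 UMIs per cell, which left out 156 and 141 cells, these shares were 0.281% and 0.168%. They rest on 34 of 12085 fibroblast-like and 1 of 596 muscle-like cells. A single muscle-like cell cannot set a background level, so whether the Il1b counts of fibroblast-like cells exceed it cannot be told.

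Il1a, the constitutive IL-1 cytokine, had the fewest UMIs. Ear2-high myeloid-like cells held 271 of the 417 and had a level of 0.448 ± 0.465 (n = 15), while neutrophil-like cells had 0.383 (0.248 to 0.566, from 25 UMIs). Monocyte-like, dendritic-like and macrophage-like cells had 0.0782, 0.0713 and 0.0288 summed over all libraries. No UMI of Il1a was counted in fibroblast-like cells among 274529087 UMIs, which allows a level of up to 0.000109 per 10000.

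Il1rn, the antagonist, was a myeloid gene too. Its summed level was 21.4 (20.3 to 22.6) in neutrophil-like cells, 15.1 without ZT14 replicate 1. Ear2-high myeloid-like cells had 6.36 ± 3.16 (n = 15), from 1.65 to 14, with a UMI in 59.2% of cells, and monocyte-like cells had 2.58 ± 1.57 (n = 6). These ranges overlapped. In macrophage-like cells the level was 0.522 ± 0.750 (n = 18), and in dendritic-like cells, where Il1b was high, it was 0.485 ± 0.394 (n = 5). Only 47 UMIs of Il1rn were counted in fibroblast-like cells, and 11 of them fell in the 68 cells of a cluster led by the division genes Hist1h2ap and Stmn1 and the keratinocyte gene Lgals7. Keratinocyte-like cells were named only at the finer resolution, and their part in these Il1rn counts was not tested.

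Il33, an alarmin of the nucleus, was a fibroblast gene in this tissue. Its level was 1.22 ± 0.500 (n = 18), with a lowest, median and highest library of 0.536, 1.12 and 2.72, and 61.4% of fibroblast-like cells had a UMI. Macrophage-like cells had 0.0202 summed, with a UMI in 2.59% of cells. Thinned to 4000 UMIs per cell, the shares were 29.3% of fibroblast-like, 1.02% of macrophage-like and 1.01% of muscle-like cells. The macrophage-like share of Il33 was thus close to the muscle-like share, which rests on 6 of 596 cells. None of the T cell-like, NK cell-like, type 2 innate lymphoid-like, B cell-like, mast cell-like or endothelial-like cells had a UMI.

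Il18, whose product is stored as a precursor and cut by caspase-1, had 1.04 ± 0.179 (n = 18) in fibroblast-like cells, from 0.632 to 1.3, and 77.1% of these cells had a UMI. By their means, next came monocyte-like cells with 0.425 ± 0.247 (n = 6), macrophage-like cells with 0.246 ± 0.0718 (n = 18), Ear2-high myeloid-like cells with 0.242 ± 0.166 (n = 15) and dendritic-like cells with 0.215 ± 0.0920 (n = 5), and these ranges overlapped. Neutrophil-like cells had a summed level of 0.261 (0.152 to 0.417), from 17 UMIs. The monocyte-like level moved with 1 library: summed, it was 0.602 with ZT2 replicate 3 and 0.449 without it. After thinning, 33.2% of fibroblast-like and 9.25% of macrophage-like cells had a UMI of Il18, against 0.671% of muscle-like cells. NK cell-like and type 2 innate lymphoid-like cells had no UMI.

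Il1r1, the signalling IL-1 receptor, had 0.637 ± 0.165 (n = 18) in fibroblast-like cells, from 0.384 to 1.05, and 98.2% of its UMIs. It was low in immune classes, with 18 UMIs in all macrophage-like cells and none in neutrophil-like, NK cell-like, B cell-like or mast cell-like cells. In 27 endothelial-like cells 5 UMIs gave 0.224 (0.0728 to 0.523).

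Il1r2, the decoy receptor, marked 2 distant cell types. Fibroblast-like cells had 8.91 ± 1.78 (n = 18), from 6.45 to 12.8, and 95.6% of them had a UMI. Neutrophil-like cells had a summed level of 48.0 (46.3 to 49.7), 47.3 without ZT14 replicate 1, and a UMI in 100% of 147 cells. Il1r2 in dendritic-like cells was 1.23 ± 0.407 (n = 5), with a UMI in 56.2% of cells. Macrophage-like cells had a UMI in 7.67%, and after thinning in 2.30% against 3.19% of muscle-like cells. The muscle-like share rests on 19 of 596 cells and was not shown to be a background. Whether the Il1r2 counts of macrophage-like cells exceed a background thus cannot be told.

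By level, Il1rl1, the Il33 receptor, was led by 3 classes known to respond to Il33, while fibroblast-like cells held 3953 of its 6083 UMIs. Mast cell-like cells had a summed level of 18.5 (17.0 to 20.1), with a UMI in 83.3%, and type 2 innate lymphoid-like cells 7.05 (6.40 to 7.75), with a UMI in 81.0%. T cell-like cells, of which 89 of 99 were in a cluster with 4 of 4 regulatory T cell markers, had 2.30 ± 1.23 (n = 3). Ear2-high myeloid-like cells had 0.586 ± 0.279 (n = 15) and macrophage-like cells 0.188 ± 0.0626 (n = 18). Il13, a cytokine that mast cells and type 2 innate lymphoid cells make, was seen in the same pair of classes, at 9.72 per 10000 in mast cell-like and 0.575 in type 2 innate lymphoid-like cells. Il13 was among the markers used to name type 2 innate lymphoid-like cells, so its presence there is not independent of that name. NK cell-like and B cell-like cells had no UMI of Il1rl1, and muscle-like cells had 1.

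Il18r1 was highest in NK cell-like cells, with a summed level of 2.58 (2.23 to 2.97) and a UMI in 80.5% of them, and in T cell-like cells, with 1.59 ± 0.649 (n = 3). Type 2 innate lymphoid-like cells had 0.887 (0.667 to 1.16). Fibroblast-like cells had a lower level, 0.321 ± 0.216 (n = 18), but, being many, held 9097 of 9702 UMIs. Il18r1 in macrophage-like cells was 0.0189 summed. The partner chain gene Il18rap had 3.31 in NK cell-like, 2.07 in neutrophil-like, 0.844 in T cell-like and 0.822 in type 2 innate lymphoid-like cells, but 6 UMIs in all fibroblast-like cells, or 0.000219 per 10000. Il18r1 and Il18rap UMIs were thus counted together in lymphoid classes, while in fibroblast-like cells Il18r1 UMIs came nearly without those of the partner chain.

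Il18bp, the secreted inhibitor of Il18, had its highest means in monocyte-like and macrophage-like cells. Monocyte-like cells had 0.195 ± 0.196 (n = 6), macrophage-like cells 0.168 ± 0.0542 (n = 18) and fibroblast-like cells 0.0658 ± 0.0142 (n = 18). The monocyte-like and macrophage-like ranges overlapped, and summed over all libraries the monocyte-like level fell from 0.277 to 0.134 when ZT2 replicate 3 was left out. All 8 UMIs of Il18bp in neutrophil-like cells came from ZT14 replicate 1.

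Within fibroblast-like cells, 10 clusters were told apart by their leading genes (the plot of levels in fibroblast clusters). Members, other family genes and clock genes had been left out of the clustering. A cluster led by Dmkn, Krtdap and Sbsn (2119 cells) had the highest Il33, 2.41 ± 0.529 (n = 17), from 1.72 to 3.42, and a UMI in 87.4% of cells. The cluster led by Cthrc1, Tnmd and Gdf15 (686 cells) had the lowest Il33, 0.123 ± 0.0945 (n = 15), from 0.0128 to 0.317, so these ranges did not overlap. Between them lay the clusters led by Crispld1 with 1.36 ± 0.385 (n = 17), Ifit1 with 1.16 ± 0.315 (n = 18), Cxcl10 with 1.02 ± 0.324 (n = 17), Sult1e1 with 0.798 ± 0.206 (n = 18) and Cilp with 0.411 ± 0.192 (n = 15), and neighbours in this order overlapped in Il33.

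Il18 fell into 2 ranges of mean level. It was between 0.884 ± 0.247 (n = 10) and 1.35 ± 0.181 (n = 17) in the clusters led by Dmkn, Crispld1, Ifit1, Cxcl10, Sult1e1 and Cxcl1. It was 0.304 ± 0.115 (n = 17) in the cluster led by Steap4, 0.194 ± 0.107 (n = 15) in that led by Cilp and 0.114 ± 0.0561 (n = 15) in that led by Cthrc1. Il1r2 was highest in the Sult1e1 cluster, 12.0 ± 2.52 (n = 18), and at 11 ± 2.21 (n = 17) in the Crispld1, 10.8 ± 1.82 (n = 18) in the Ifit1 and 10.6 ± 1.73 (n = 17) in the Cxcl10 cluster, which overlapped. The Cxcl1 and Dmkn clusters had 7.95 ± 1.80 (n = 10) and 7.47 ± 1.72 (n = 17), and the Steap4 and Cthrc1 clusters 4.28 ± 1.05 (n = 17) and 3.94 ± 0.928 (n = 15). The lowest Il1r2 was in the Cilp cluster, 1.86 ± 0.783 (n = 15). In the cluster led by Hist1h2ap, where only 2 libraries had enough cells, the summed levels were 1.06 for Il18 and 3.42 for Il1r2. Il1r1 ran in another order. The Steap4 cluster had the highest level, 1.38 ± 0.473 (n = 17), then the Cthrc1 cluster, 0.963 ± 0.367 (n = 15), and the Dmkn cluster had 0.436 ± 0.101 (n = 17), so the decoy and the signalling receptor were highest in different clusters.

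Il18r1 had its highest mean in the Dmkn cluster, 0.575 ± 0.416 (n = 17), and was lowest in the Steap4, Cilp and Cthrc1 clusters, with 0.0289 ± 0.0387 (n = 17), 0.0611 ± 0.0766 (n = 15) and 0.0128 ± 0.0169 (n = 15). After thinning, the shares of cells with a UMI of Il18r1 were close in the Dmkn, Crispld1 and Cxcl10 clusters, at 12.12%, 12.35% and 10.74%. Il18bp was highest in the Ifit1 cluster, which is led by interferon response genes, with 0.124 ± 0.0543 (n = 18) against 0.0260 ± 0.0158 (n = 15) to 0.0726 ± 0.0374 (n = 17) in the others. The Ifit1 range, 0.0163 to 0.226, covered those of its neighbours.

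Il1rl1 in fibroblast-like cells was counted in few cells: 3953 UMIs fell in 359 cells. The Cxcl1 cluster, led by the inflammatory genes Cxcl1, Ccl2 and Has1 (306 cells), held 1832 of them, of which 1699 came from 29 cells of ZT14 replicate 1. In that library the cluster had 13.4 per 10000, in ZT14 replicate 3 it had 1.53, and in the other 8 libraries with at least 10 such cells it had between 0 and 0.170. The Cthrc1 cluster had 0.413 ± 0.512 (n = 15), with a median of 0.294 and a highest library of 1.81 at ZT22 replicate 1.

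**Figure D2:**
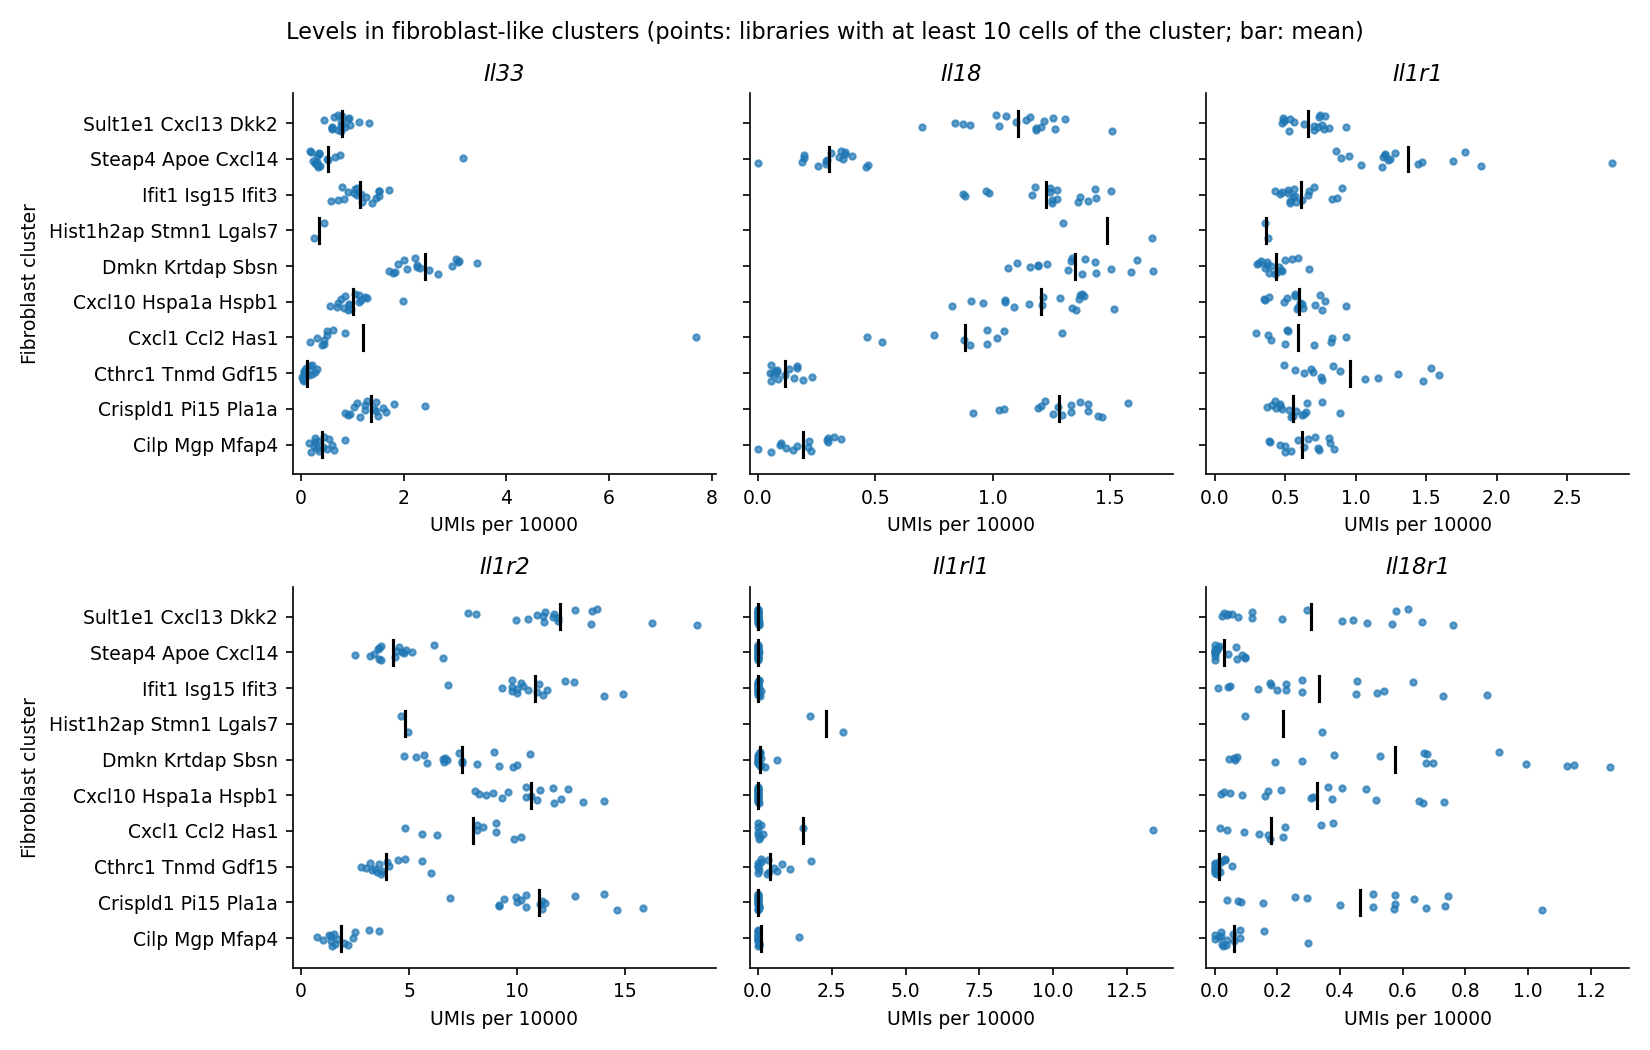
Levels of 6 genes (UMIs per 10000, linear axes that start at 0) in 10 fibroblast-like clusters, each named by 3 leading genes; points are libraries with at least 10 cells of the cluster and bars are means. Il33 was highest in the Dmkn cluster, Il1r1 in the Steap4 cluster and Il1r2 in the Sult1e1 cluster, and a single library, ZT14 replicate 1, set the highest points of Il33 and Il1rl1 in the Cxcl1 cluster.

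Whether the genes changed with time of day was tested by fitting a 24 h cosine to the summed UMIs of each library with edgeR, with Benjamini-Hochberg adjustment over all genes tested. In fibroblast-like cells 8 members could be tested and Il1a and Il1rn fell under the filter on low counts. The receptors Il18r1, Il1r2 and Il1r1 passed at an adjusted p under 0.05, and all 3 peaked in the light. Among all 12925 genes tested, 12.9% passed. At an unadjusted p under 0.05 there were 5 members and 28.3% of all genes. The median peak-to-trough difference was 0.85 on the log2 scale for the 8 members and 0.26 for all genes. This fitted difference is never negative and also grows with scatter, so a larger median alone does not show a stronger rhythm. In immune-like cells, where 0 of 8 members passed, the medians were 1.16 for members and 0.31 for all genes. With the 6 times unordered, an F test called 3 members and 8.26% of all genes, and DESeq2 with the cosine called 4 members, the addition being Il33, and 18.2% of all genes. JTK_Cycle, the rank test used in the study, gave 3 members an unadjusted p under 0.05 with pi to 4 decimals, beside 8.12% of 22415 genes. With pi to 5 decimals JTK_Cycle gave only Il18r1 a p under 0.05, with 0.154 for Il1r1 and 0.0708 for Il1r2.

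Il18r1 had the largest fitted rhythm of the tested members. Its level was 0.683, 0.700 and 0.588 in the libraries of ZT2, 0.467, 0.336 and 0.430 at ZT6, 0.277, 0.130 and 0.0976 at ZT10, 0.0321, 0.0515 and 0.0390 at ZT14, 0.158, 0.248 and 0.220 at ZT18 and 0.474, 0.393 and 0.447 at ZT22. All 3 libraries of ZT14 lay below, and all 3 of ZT2 above, every library of the other times. The fitted difference between peak and trough was 3.16 on the log2 scale (jackknife SE 0.52), or 8.93-fold, with a peak at ZT1.78 (SE 0.457 h) and an adjusted p of 0.000296 by edgeR's quasi-likelihood F test, adjusted by Benjamini-Hochberg. It passed in each of the 18 fits without 1 library, with an adjusted p of at most 0.00122. The study had itself picked Il18r1 as a rhythmic fibroblast gene in these libraries, so its call is not independent evidence.

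Il1r2 ranged less. It was 11.3, 10.9 and 12.8 per 10000 at ZT2, 9.04, 8.24 and 7.27 at ZT6, 7.72, 8.62 and 8.52 at ZT10, 7.10, 8.0 and 8.56 at ZT14, 6.46, 6.45 and 8.29 at ZT18 and 10.9, 9.57 and 10.6 at ZT22. The libraries of ZT22 and ZT2 lay above those of all other times. The fit gave 1.50-fold (1.37 to 1.64, 1 SE) between trough and peak, 0.58 on the log2 scale (SE 0.13), a peak at ZT1.90 (SE 1.03 h) and an adjusted p of 0.0114 (edgeR, Benjamini-Hochberg), and every fit without 1 library passed, at 0.0337 or below.

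Il1r1 was 0.714, 0.636 and 0.608 at ZT2, 0.771, 1.05 and 0.694 at ZT6, 0.836, 0.653 and 0.553 at ZT10, 0.602, 0.459 and 0.431 at ZT14, 0.384, 0.506 and 0.473 at ZT18 and 0.713, 0.790 and 0.591 at ZT22. Levels in the light and the dark overlapped, and the highest was ZT6 replicate 2. That library had 184 fibroblast-like cells, 16.3% of them in the Cthrc1 cluster, where Il1r1 was high, against 1.90% to 14.2% in the others. The fit gave 1.72-fold (1.50 to 1.96, 1 SE), 0.78 on the log2 scale (SE 0.19), a peak at ZT4.67 (SE 1.06 h) and an adjusted p of 0.0220 (edgeR, Benjamini-Hochberg). Without ZT6 replicate 2 the adjusted p was 0.0539, and it passed in the 17 other fits. A list of 16 immediate early genes, which dissociation can induce, summed in fibroblast-like cells to 168.1 per 10000 in ZT6 replicate 2, to 136 ± 29.2 over ZT6 and to 93.2 ± 7.72 over ZT14 (n = 3 each), and 1 of the 16, Ier3, passed the rhythm test, with 8 at an unadjusted p under 0.05. Their median fitted difference was 0.58 on the log2 scale, against 0.26 for all genes, of which 12.9% passed and 28.3% had an unadjusted p under 0.05. The part of this list and of the cluster share in the Il1r1 result was not tested.

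The Il33 mean was 1.00 ± 0.155 at ZT2, 0.887 ± 0.498 at ZT6, 1.05 ± 0.126 at ZT10, 1.72 ± 0.890 at ZT14, 1.66 ± 0.0671 at ZT18 and 1.02 ± 0.194 at ZT22 (n = 3 each). The 3 libraries of ZT18, at 1.59, 1.65 and 1.73, were above all but ZT14 replicate 1, which had 2.72. With a fitted peak at ZT16.0 (SE 1.18 h) and 0.92 on the log2 scale (SE 0.36), Il33 had an adjusted p of 0.0699 in edgeR with Benjamini-Hochberg adjustment and was not called, with a range of 0.0189 to 0.134 over the fits without 1 library. It passed at 0.00842 with DESeq2. The share of fibroblast-like cells in the Dmkn cluster, where Il33 was highest, was 27.6% ± 5.75 at ZT14 and 25.9% ± 1.38 at ZT18, against means of 10.3% to 15.6% at the other times, with 29.5% in ZT6 replicate 3, where Il33 was 1.46. Within the Dmkn cluster the fitted difference of Il33 was 0.49 on the log2 scale (SE 0.20, adjusted p = 0.176). The part of the Dmkn share in the Il33 levels was not tested.

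The remaining members were not called in fibroblast-like cells. Il18 was between 0.632 and 1.3 in the 18 libraries, with a fitted difference of 0.41 on the log2 scale (SE 0.11), a peak at ZT22.7 and an adjusted p of 0.101 (edgeR, Benjamini-Hochberg). Il18bp differed by 0.28 on the log2 scale (SE 0.20, adjusted p = 0.531). Il1rl1 had 2.94 on the log2 scale with an SE of 1.83 and an adjusted p of 0.238, and 2011 of its 3953 UMIs came from ZT14 replicate 1, where its level was 2.23 against 0.00217 to 0.266 in the others. Without that library its adjusted p was 0.753, and the fitted difference fell to 0.89 on the log2 scale when the Cxcl1 cluster was left out of the sums. Il1b had an adjusted p of 0.225, 0.882 without ZT14 replicate 1.

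**Figure D3:**
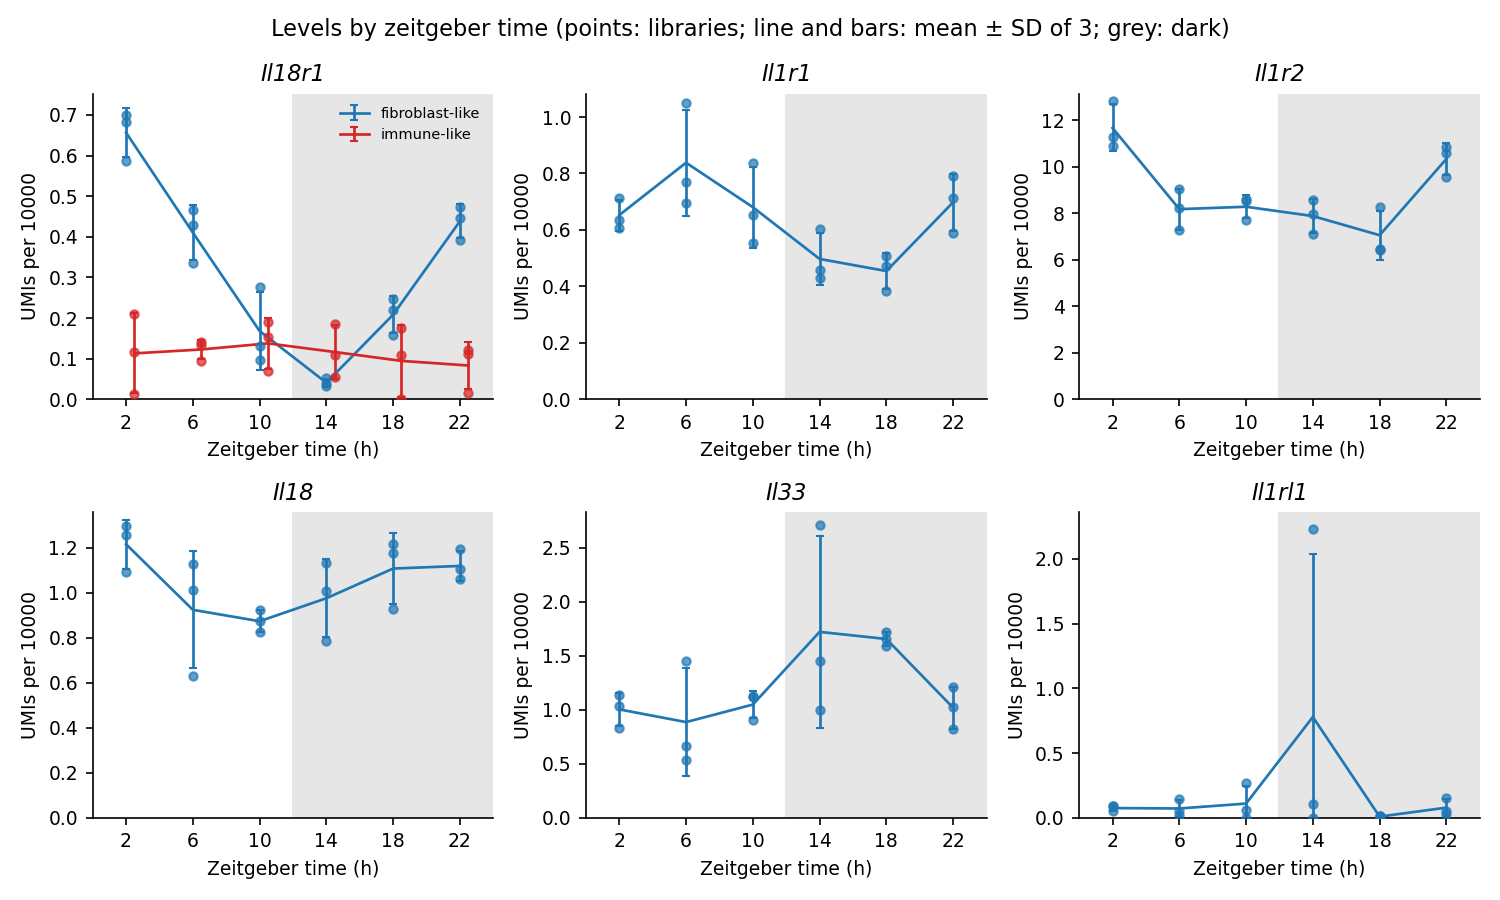
Levels (UMIs per 10000) of 6 genes in fibroblast-like cells by zeitgeber time, with Il18r1 in immune-like cells in red; points are libraries, lines and bars the mean ± SD of 3, and grey marks the dark. Il18r1 was lowest at ZT14 in fibroblast-like cells, Il1r2 was highest at ZT22 and ZT2, Il33 was high at ZT14 and ZT18 and was not called, and 1 library of ZT14 stood apart for Il33 and Il1rl1.

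The same fit within fibroblast clusters asked whether a rhythm was present when the mix of clusters was held. The Dmkn cluster had been joined from clusters of 1669 and 450 cells led by the same genes, and their mix was not held. There were 5 clusters with enough cells at every time, counting libraries with at least 20 cells, and 31 pairs of member and cluster could be tested. Il18r1 passed in all 5 (edgeR, Benjamini-Hochberg over all genes of a cluster). Its fitted difference was 3.73 on the log2 scale (SE 0.46, adjusted p = 0.000208) in the Sult1e1 cluster, 3.23 (SE 0.58, adjusted p = 0.00221) in the Ifit1 cluster, 3.22 (SE 0.60, adjusted p = 0.00532) in the Dmkn cluster, 3.00 (SE 0.56, adjusted p = 0.000858) in the Cxcl10 cluster and 2.76 (SE 0.78, adjusted p = 0.0164) in the Crispld1 cluster. Peaks lay between ZT1.81 and ZT2.30. In the Crispld1 cluster the adjusted p was 0.0519 without ZT14 replicate 2. In the Dmkn cluster the level of Il18r1 was 1.18 ± 0.0725 at ZT2 and 0.0576 ± 0.00951 at ZT14 (n = 3 each).

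Il1r1 passed in 3 of the 5 clusters: in the Cxcl10 cluster with 0.85 on the log2 scale (SE 0.22, adjusted p = 0.00306), in the Sult1e1 cluster with 0.62 (SE 0.15, adjusted p = 0.00650) and in the Crispld1 cluster with 0.67 (SE 0.17, adjusted p = 0.0270). The Il1r1 values in the Ifit1 and Dmkn clusters were 0.32 (SE 0.19, adjusted p = 0.550) and 0.44 (SE 0.16, adjusted p = 0.332), and whether clusters differed was not tested. In the Crispld1 cluster the Il1r1 call was lost without either ZT14 replicate 2 or 3, ZT18 replicate 2 or 3, or ZT6 replicate 1, with a highest adjusted p of 0.135 without ZT14 replicate 3. Il1r2 passed in the Cxcl10 cluster, with 0.46 (SE 0.11, adjusted p = 0.0112), and in the other 4 its fitted difference was between 0.34 and 0.65 with an adjusted p of 0.0650 to 0.406. Il18 passed in the Cxcl10 cluster only, with 0.38 (SE 0.11, adjusted p = 0.0464), a call that held in 4 of 16 fits without 1 library and was highest, at 0.152, without ZT10 replicate 2. No call was made for Il33 in any of the 5 clusters, where its fitted difference was between 0.32 and 0.50 on the log2 scale. In all, 10 of 31 pairs were called, or 2 of 6 members in the Crispld1, 4 of 6 in the Cxcl10, 1 of 7 in the Dmkn, 1 of 6 in the Ifit1 and 2 of 6 in the Sult1e1 cluster, beside 7.62%, 7.43%, 4.23%, 3.43% and 7.25% of all genes tested there.

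**Figure D4:**
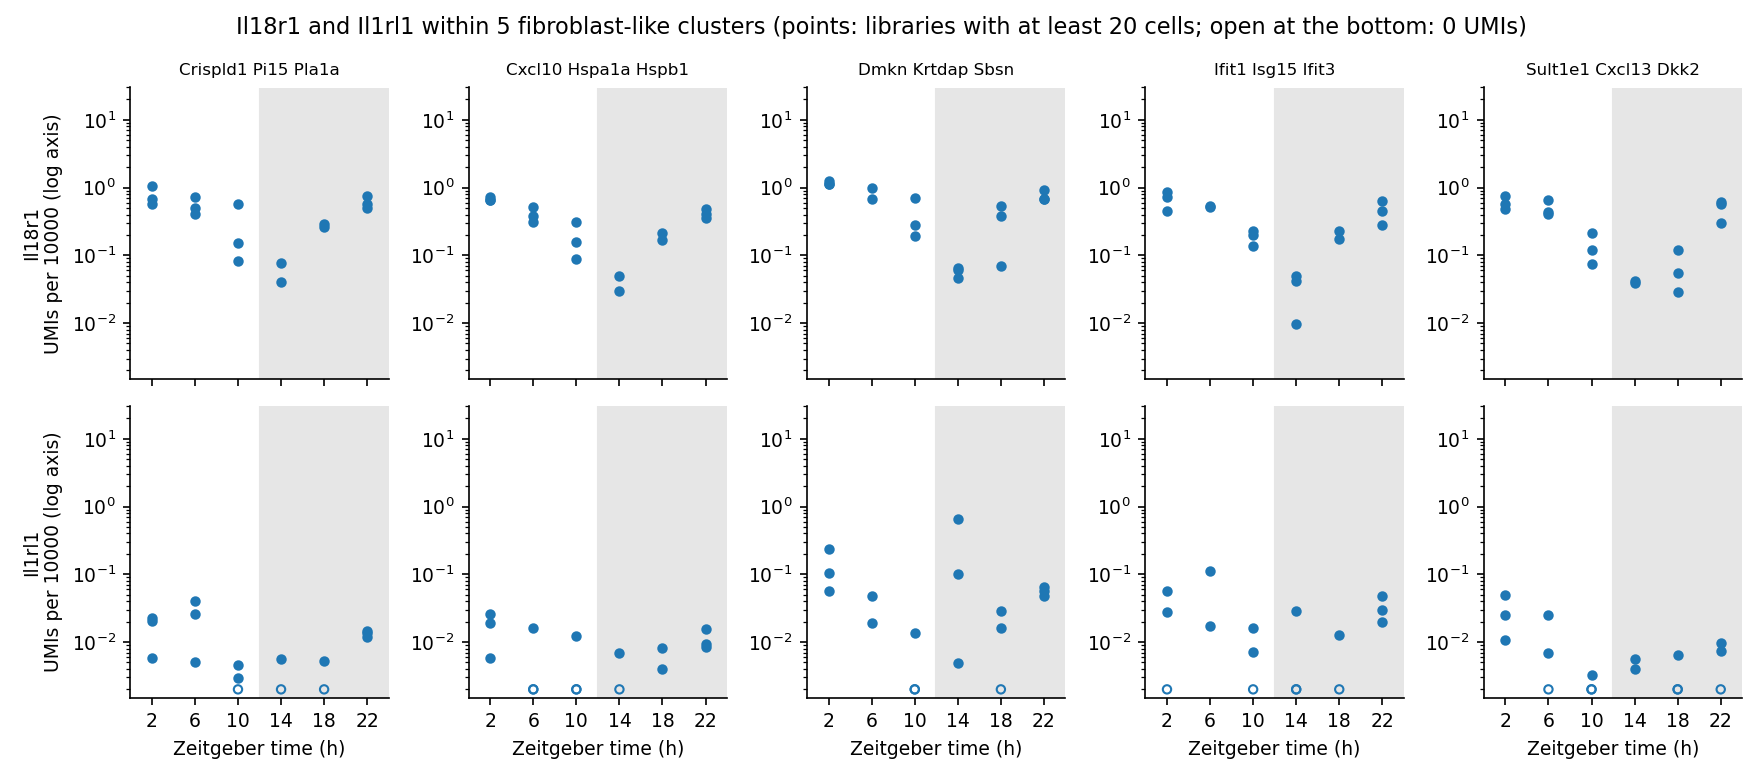
Levels of Il18r1 (upper row) and Il1rl1 (lower row) in UMIs per 10000 on a log10 axis, by zeitgeber time, in 5 fibroblast-like clusters; points are libraries with at least 20 cells, open points at the bottom had 0 UMIs, and grey marks the dark. The mean of Il18r1 was lowest at ZT14 in each cluster, while Il1rl1, testable in the Dmkn cluster only, was not called, and its highest point was ZT14 replicate 1 in the Dmkn cluster.

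In immune-like cells 8 members could be tested and 0 passed (edgeR, Benjamini-Hochberg), with 0 under DESeq2 and 1, Il1rn, at an unadjusted p under 0.05. Of 10567 genes tested, 0.0757% passed with edgeR, 0.435% of those tested passed with DESeq2, and 8.19% had an unadjusted p under 0.05, so few genes of any kind were called. Il1b was between 2.55 and 28 per 10000 over the libraries with a median of 8.44, and ZT14 replicate 1 was the highest. Its fitted difference was 1.49 on the log2 scale (SE 0.64, adjusted p = 0.639), and 1.08 without that library. Il1rn was between 0.519 and 4.46, again highest in ZT14 replicate 1, and had 1.60 on the log2 scale (SE 0.48, adjusted p = 0.510, unadjusted p = 0.0131). Il1r2 was 5.66 in ZT14 replicate 1 and between 0.0208 and 1.69 in the others, and its fitted difference of 2.00 on the log2 scale (SE 1.78) fell to 0.30 without that library. That library held 92 neutrophil-like cells, against 0 to 9 in the others, and neutrophil-like cells had the highest summed level of these 3 genes. The part of neutrophil-like cells in the levels of that library was not tested. The other members tested were Il1a, Il18, Il1rl1, Il18r1 and Il18bp, with adjusted p-values between 0.666 and 0.980.

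**Figure D5:**
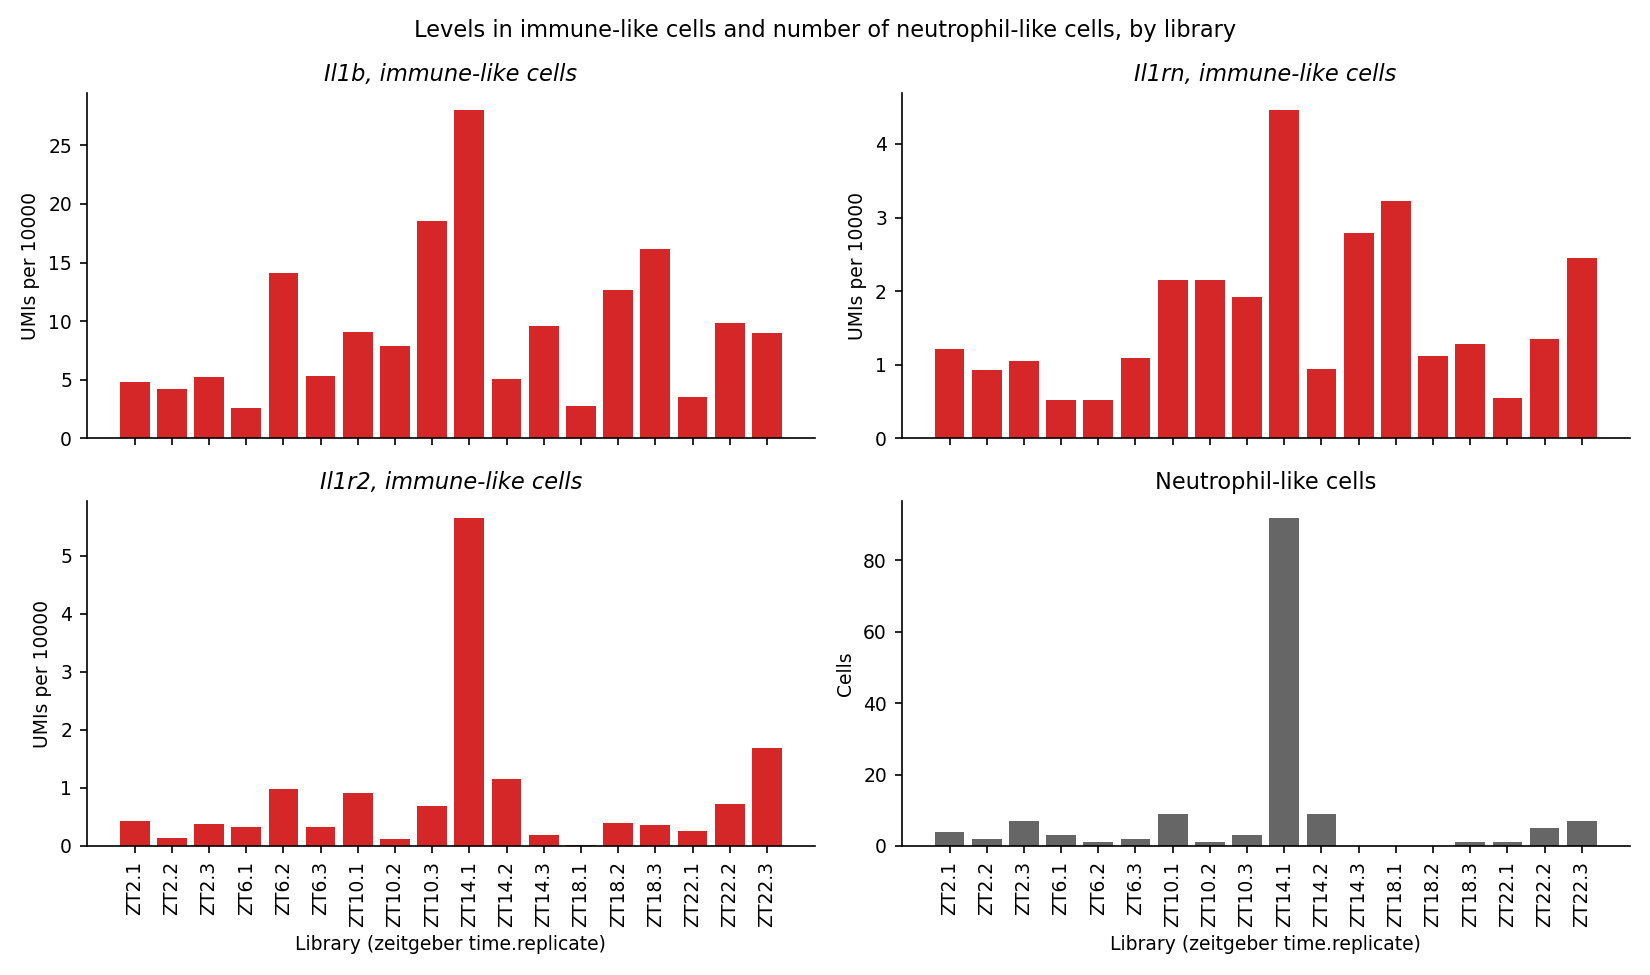
Levels of Il1b, Il1rn and Il1r2 in immune-like cells (UMIs per 10000, bars from 0, 1 bar per library) and the number of neutrophil-like cells in each of the 18 libraries, named by zeitgeber time and replicate. ZT14 replicate 1 had the highest bar in all 4 panels, with 92 neutrophil-like cells.

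Macrophage-like cells gave 6 testable members, of which 0 passed with edgeR or DESeq2 and 1 had an unadjusted p under 0.05, beside 0.637% of 9256 genes that passed with edgeR, 1.84% with DESeq2 and 12.3% at an unadjusted p under 0.05. The 1 member was again Il1rn, which JTK_Cycle gave an unadjusted p of 0.0301 with pi to 4 decimals, where 3.65% of its genes were under 0.05, and 0.196 with pi to 5 decimals. It was fitted with 2.33 on the log2 scale (SE 0.97, adjusted p = 0.333, unadjusted p = 0.0253). Its level was 3.38 in ZT18 replicate 1, from 16 macrophage-like cells, and between 0.0237 and 0.804 in the others, and without it the adjusted p was 0.487. Il1b in macrophage-like cells was 5.97 in ZT18 replicate 2, 3.18 in ZT14 replicate 3 and between 0.0654 and 1.35 in the rest.

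Whether a rhythm differed between fibroblast-like and immune-like cells was tested by letting the cosine terms depend on cell type, with a term for each library. Il18r1 passed, with an adjusted p of 0.0444 (edgeR, Benjamini-Hochberg), and was 1 of 10 members tested, beside 0.327% of 13139 genes. The study had reported Il18r1 as rhythmic in fibroblasts and not in immune cells of these libraries, so the contrast was known beforehand. In immune-like cells Il18r1 was 0.113 ± 0.0984 at ZT2 and 0.117 ± 0.0662 at ZT14 (n = 3 each), against 0.657 ± 0.0603 and 0.0409 ± 0.00984 in fibroblast-like cells. The call held in 4 of 18 fits without 1 library, with a highest adjusted p of 0.131 without ZT14 replicate 2, and the adjusted p was 0.0694 with the replicate number as a block, where 0 members and 0.289% of genes passed. With unordered times 0 members and 0.0837% of genes passed, and with DESeq2 1 member and 0.818% of genes. Immune-like cells mix NK cell-like and T cell-like cells, which had Il18r1, with macrophage-like cells, which nearly lacked it, and the part of that mix was not tested.

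Over all kept cells of a library, 2 of 10 members passed, beside 5.06% of 14438 genes, and DESeq2 called 4 members and 11.4% of genes. Il18r1 had 2.89 on the log2 scale (SE 0.47), with a peak at ZT1.81 and an adjusted p of 0.000568 (edgeR, Benjamini-Hochberg). Il1r1 had 0.78 (SE 0.19), with a peak at ZT4.40 and an adjusted p of 0.0435, which was 0.0530 with the replicate number as a block, a fit that called 5.41% of genes, and passed in 5 of 18 fits without 1 library, with a highest value of 0.0921. Il1r2, called in fibroblast-like cells, had 0.51 (SE 0.15, adjusted p = 0.0960) in whole libraries.

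Other genes of the pathway were read from lists. Of 9 further family genes 2 could be tested in fibroblast-like cells, and 0 passed with edgeR, although both had an unadjusted p under 0.05. Il1rap, the shared co-receptor, was at 0.402 ± 0.0627 (n = 18) with 0.45 on the log2 scale (SE 0.15, adjusted p = 0.0606), and Il1rl2 was at 1.79 ± 0.245 (n = 18) with 0.33 (SE 0.14, adjusted p = 0.151). Il36g, an epithelial cytokine of the family, had 426 UMIs in neutrophil-like cells, or 6.53 per 10000, and 7 in fibroblast-like cells.

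Of 16 signalling genes 3 passed in fibroblast-like cells, 2 with a peak in the light and 1 in the dark, and 4 had an unadjusted p under 0.05. These shares were near those of all genes, 12.9% and 28.3%, and the median fitted difference was 0.27 on the log2 scale against 0.26. Irak3, which encodes an inhibitor of receptor signalling, had the smallest p of them: it was 1.36 ± 0.106 per 10000 at ZT10 and 0.793 ± 0.00258 at ZT18 (n = 3 each), a fitted 1.80-fold (1.71 to 1.89, 1 SE) with a peak at ZT8.55 (SE 0.502 h) and an adjusted p of 6.80e-06 (edgeR, Benjamini-Hochberg). It also passed in each of the 5 tested clusters. Rela, an NF-kappaB subunit, had 0.47 on the log2 scale (SE 0.11, peak ZT6.30, adjusted p = 0.0115), and Irak1, a kinase of the pathway, had 0.25 (SE 0.06, peak ZT13.8, adjusted p = 0.0325). Of 12 genes of cytokine processing 5 could be tested and 0 passed, with 2 at an unadjusted p under 0.05. Of 17 target genes 10 could be tested and 0 passed, with 1 at an unadjusted p under 0.05. In immune-like cells none of the 5 family, 16 signalling, 9 processing and 12 target genes tested passed, with 1, 1, 1 and 3 at an unadjusted p under 0.05.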

How the data were processed

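Live cells of dorsal dermis from 18 mice were profiled by droplet single-cell RNA sequencing. The authors deposited, for each library, a table of UMI counts per gene and barcode from Cell Ranger 3.1.0 with the mm10 genome. These counts are not normalized, and they come from transcript 3′ ends, so levels are compared between samples and not between genes. Groups were zeitgeber times, taken from the sample labels.

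The study's limits on cells were applied (850 to 7800 genes detected, mitochondrial UMIs below 13%). The cells were clustered with scanpy 1.11.5 (2000 variable genes, 30 components, 15 neighbours, Leiden at 0.8 and, for immune cells, 1.5), after leaving out 45 genes of the family and the clock. A cluster was named when at least 3 markers and 40% of a class's markers were found. These naming rules, and the removal of haemoglobin genes, were revised after clusters were seen. Doublets were not removed in the main analysis, and in an alternative the cells with the highest simulated doublet scores (219 in all) were left out. Rebuilt classes may differ from those of the study.

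UMIs were summed per library and class and fitted with 24 h cosine and sine terms by edgeR 4.0.16 (TMM, filterByExpr, quasi-likelihood F test) in R 4.3.3, with Benjamini-Hochberg adjustment over all genes. This script was tested on simulated data first. The alternatives were DESeq2 1.42.0, JTK_Cycle, other filters, scalings, cluster settings and designs, and fits without each library. Standard errors are jackknife values over libraries. Between 3777201 and 40094032 UMIs per library in kept cells, and between 481549 and 5530368 in immune-like cells, set the precision. Poisson and binomial intervals and limits cover counting error only. Cells were thinned to a fixed number of UMIs only for shares of cells with a UMI.

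All 10 members were named, with up to 6 genes of each pathway list at an adjusted p under 0.05, by smallest p, and the genes most like a member (5 over libraries for called members, up to 3 over classes with at least 50 UMIs). Other listed genes were named after their values were seen. The members and lists were chosen with earlier results of these data known. Collection times in the labels make the replicate number a day, which pairs the libraries. The correlation of deviations between same-numbered libraries had a median of 0.0315 in fibroblast-like cells (45 pairs, from -0.159 to 0.343) and of -0.0111 over 90 other pairs.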

Additional observations from a re-analysis of the deposited data

Results flagged for a closer look

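One result stood out because the same gene behaved differently in a pair of cell types. The study had already reported this contrast from the same libraries, so it is not independent evidence. In a test of the difference itself, the 24 h rhythm of Il18r1 differed between fibroblast-like and immune-like cells (adjusted p = 0.0444, edgeR, Benjamini-Hochberg). The fitted curve of the difference had 3.92 on the log2 scale between peak and trough (SE 0.84), a value that joins size and time of peak. The separate fits had 3.16 in fibroblast-like and 0.67 in immune-like cells. In fibroblast-like cells the 3 libraries of ZT14 had 0.0321, 0.0515 and 0.0390 per 10000 and were below all others, while in immune-like cells the mean was 0.117 at ZT14 and 0.113 at ZT2. The call did not hold with the replicate number as a block (adjusted p = 0.0694) or with the 6 times unordered (0.272), and it held in 4 of 18 fits without 1 library (0.0334 to 0.131). The other 9 members had adjusted p-values of 0.672 or more. What lies behind the difference was not tested, and immune-like cells had between 0 and 0.209 per 10000 over the libraries.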

How the results depend on the processing

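In fibroblast-like cells, where 3 members were called, fits without 1 library called 3 to 4 (Il33 without ZT6 replicate 3 or ZT14 replicate 3, Il18 in place of Il1r1 without ZT6 replicate 2), and JTK_Cycle with pi to 5 decimals, an alternative chosen after seeing the data, gave 1 member where pi to 4 decimals gave 3. Immune-like cells gave 0 in every such fit. The share of all genes under 0.05 was not recorded for JTK_Cycle with pi to 5 decimals. In macrophage-like cells, with 0 called, JTK_Cycle gave 1 and fits without 1 library 0 to 1, the 1 being Il1a without ZT14 replicate 1 (adjusted p = 0.0354 by edgeR), a gene that otherwise fell under the filter. In whole libraries, with 2 called, DESeq2 gave 4, no filter on low counts 1, the replicate block 1, and fits without 1 library 1 to 2. The difference between cell types, called for 1 member, was called for 0 with no filter on low counts, with 6 unordered times and with the replicate block by cell type, and for 0 to 1 without 1 library. The block changed no other call. Of the pairs of member and cluster, 10 were called, against 7 to 12 without 1 library. With at least 40 cells 7 were called, but only the Cxcl10 and Sult1e1 clusters could then be tested. The main fit had 4 and 2 calls in these clusters, so 7 is not to be set against 10. Highest classes were compared over the 7 classes with at least 10 cells in 3 or more libraries. Neutrophil-like, mast cell-like, NK cell-like and type 2 innate lymphoid-like cells were not among them. Their high levels of Il1b, Il1rn, Il1r2, Il1rl1 or Il18r1 were thus outside this check. At Leiden resolution 2, 6 of 10 members had the same highest class. There no T cell-like class was named and the 22 dendritic-like cells gave no library with at least 10. Levels without the largest neutrophil-like and monocyte-like libraries were also added after seeing the data. Over all genes, DESeq2 against edgeR called 1640 and 730 in whole libraries, 29 and 8 in immune-like, 170 and 59 in macrophage-like cells, and 97 and 43 for the difference. The F test of unordered times called 1067 genes against 1672 in fibroblast-like cells, 336 in whole libraries, 90 in macrophage-like cells and 11 for the difference. Of single-gene results 309 were unchanged, 3 passed newly and 4 were lost under the other alternatives that were counted. The unordered times, JTK_Cycle and the fits within clusters were not in this count. The 309 include levels of members in their highest class, which have no threshold and counted as unchanged when within the SD over libraries. In fits without 1 library 724 kept their side of the threshold, 4 passed newly and 28 were lost. A reversal, meaning a large shift of the peak, was counted only for results called in the main fit, and none was seen. Causes were not tested. Classes with few cells limit what can be seen: Il18r1 in NK cell-like cells rests on 194 UMIs.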

Other observations

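Genes whose fibroblast levels ran most like those of the called receptors were sought over the 18 fibroblast libraries, among 12924 genes, by Pearson's r of log2 levels. The libraries share cells, depth and time of day with the members, so these values describe the libraries. For Il18r1 they were Pde3a (r = 0.944), a phosphodiesterase, Lpl (0.942), a lipase of the vessel wall, Plpp3 (0.921), Agtr1a (0.912), an angiotensin receptor, and Pdgfd (0.910), a growth factor. For Il1r1 they were Fbxo30 (0.863), Mlxip (0.856), Bcl10 (0.854), Pofut2 (0.849) and Sik2 (0.849), and for Il1r2 they were Armcx4 (0.819), Vamp7 (0.788), Kcnk6 (0.786), Oat (0.779) and Arfgap3 (0.772).

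Over 13 cell classes, which share libraries, the gene most like Il18bp among 15925 was Ifit3 (r = 0.929), followed by Slfn5 (0.892) and Ifit3b (0.890), all interferon response genes. Il1a was most like Hcar2 (0.971), Il1rn like Lilra6 (0.993), Il33 like Kazald1 (0.978) and Il18r1 like Spin2c (0.930) and the T cell antigen gene Thy1 (0.920). Il1a, Il1rn and Il33 had no UMI in several classes. Il18bp had none in B cell-like and mast cell-like cells, and Il18r1 none in B cell-like and endothelial-like cells. In such classes the 0.01 per 10000 added before log2 set the level. The part of this shared floor in r was not tested.

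Cytokines of the responding lymphoid cells were counted in the classes with the receptors. Ifng, the cytokine that interleukin-18 is known to induce, was at 2.22 per 10000 summed in NK cell-like and 1.64 in T cell-like cells. Areg, which encodes a repair factor, was at 2.86 in type 2 innate lymphoid-like, 2.12 in T cell-like and 1.46 in Ear2-high myeloid-like cells, and Il5 had 42 UMIs in type 2 innate lymphoid-like cells. Both Areg and Il5 were among the markers used to name type 2 innate lymphoid-like cells, so their counts there are not independent of that name. Nlrp3, an inflammasome sensor, was at 12.4 in neutrophil-like, 0.898 in monocyte-like and 0.749 in Ear2-high myeloid-like cells, with 24 UMIs in fibroblast-like cells, while Casp1, which encodes the protease that cuts the interleukin-18 precursor, was at 0.635 in monocyte-like, 0.605 in macrophage-like and 0.161 in fibroblast-like cells.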
